A study of Rattus norvegicus with 14 samples.

Results

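The immediate early and NR4A genes described here are 8 genes that cells transcribe within minutes of a stimulus: the nuclear receptors Nr4a1 and Nr4a3, the AP-1 subunits Fos, Jun and Junb, the zinc finger factor Egr1, the survival factor Ier3 and the phosphatase Dusp1. They were found by symbol in the probe annotation, among 14217 named genes, and had 14 probe sets, of which 12 were tested. All 8 genes were tested with at least 1 probe set. The Fos probe set 1371283_at, at 5.40 to 21.5, and the Nr4a3 probe set 1369217_at, at 10.9 to 112, stayed too low on the 14 arrays to be tested.

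The cells were IEC-6, an epithelial line from the small intestine of the rat that is not transformed, kept for 72 h with 1 of 3 non-steroidal anti-inflammatory drugs or with the solvent DMSO. Indomethacin, an inhibitor of both cyclooxygenases, and NS-398, which prefers the inducible cyclooxygenase, were both given at 100 µM, and SC-560, which prefers the constitutive one, at 1 µM. RNA was measured on 2 indomethacin, 4 NS-398, 4 SC-560 and 4 DMSO arrays, whose names carry a digit with or without the suffix b. Of these, 8 arrays had the suffix, 2 for each treatment, and 6 did not, 2 each for NS-398, SC-560 and DMSO. Both indomethacin arrays carried the suffix. The sources used here do not say what the suffix stands for, so every treatment was compared within the arrays of 1 kind. The submitters' text states that material was pooled before several chips were hybridised per biological sample, so the spread behind the p-values is that of arrays and may be technical only.

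Immediate early genes need no new protein for their transcription. Kinases such as ERK, p38 and those that answer cyclic AMP act on factors that already sit at the promoters, SRF with its ternary complex partners at CArG boxes and CREB at cyclic AMP response elements. The products are mostly transcription factors. FOS and JUN proteins form AP-1 dimers, the NR4A receptors bind DNA without a known natural ligand, and EGR1 binds GC-rich sites. DUSP1 removes phosphate from MAP kinases and so closes a feedback loop. Most of these messages carry AU-rich elements and decay within a short time. In the intestine these genes are known for their response to growth factors, wounding and prostaglandins.

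Signals are in arbitrary units, scaled by the authors to a common target of 500 on each array, and log2 changes are of the signal plus 50. The median array signal was 97.8 to 118, and 49.7% to 52.4% of probe sets reached 100. No 2 arrays held identical values, and the highest correlation between arrays was 0.991. The 3' to 5' signal ratio of the actin control, a measure of RNA and labelling quality, was 1.22 to 1.34 on the arrays with suffix b, against 1.498 to 1.64 on those without. Of 12 epithelial markers on the array, Cdh1 and Krt8 reached 100 everywhere while Epcam, Krt18, Muc2 and Alpi stayed below 100 on all 14 arrays. The collagen gene Col3a1, a marker of fibroblasts, reached 16750 to 28560, and of 8 immune and endothelial markers Cd14 read 2871 to 4088, Kdr and Cd68 reached 163.9 and 126.1 on their highest array, and Ptprc, Cd3e, Itgam, Pecam1 and Vwf stayed below 100.

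Promoter sequences are shown for the 4 genes found in the RefSeq promoter table, Nr4a1, Junb, Egr1 and Dusp1, because the known entry points of the upstream signals lie there. Each window is the 250 bases before the annotated start, in build GRCr8, on the + strand, and ends at the base next to the start. Capitals mark matches on either strand to 7 motifs: the cyclic AMP response element TGACGTCA, its core TGACG, the variant TGCGTCA, the AP-1 site TGANTCA, the CArG box, the NR4A site AAAGGTCA and the EGR site GCGTGGGCG. The core lies within the full element and within the variant, whose reverse complement holds it. The variant was added after the sequences had been read.
Nr4a1, chr7:134259888-134260137: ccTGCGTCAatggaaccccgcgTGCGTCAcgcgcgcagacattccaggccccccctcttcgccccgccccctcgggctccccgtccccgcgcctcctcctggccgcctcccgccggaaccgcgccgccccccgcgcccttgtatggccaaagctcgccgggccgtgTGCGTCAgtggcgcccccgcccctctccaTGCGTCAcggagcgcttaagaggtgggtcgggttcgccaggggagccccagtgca
Junb, chr19:40080876-40081125: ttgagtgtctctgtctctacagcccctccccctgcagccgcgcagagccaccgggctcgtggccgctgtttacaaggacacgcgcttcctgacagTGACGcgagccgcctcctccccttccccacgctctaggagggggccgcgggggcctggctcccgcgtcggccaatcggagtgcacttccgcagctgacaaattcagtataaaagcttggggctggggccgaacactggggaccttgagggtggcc
Egr1, chr18:26736828-26737077: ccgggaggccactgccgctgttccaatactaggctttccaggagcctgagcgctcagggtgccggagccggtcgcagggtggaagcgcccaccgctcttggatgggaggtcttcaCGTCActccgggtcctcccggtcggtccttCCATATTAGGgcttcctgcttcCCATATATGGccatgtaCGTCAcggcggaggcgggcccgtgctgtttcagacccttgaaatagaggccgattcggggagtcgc
Dusp1, chr10:17184603-17184852: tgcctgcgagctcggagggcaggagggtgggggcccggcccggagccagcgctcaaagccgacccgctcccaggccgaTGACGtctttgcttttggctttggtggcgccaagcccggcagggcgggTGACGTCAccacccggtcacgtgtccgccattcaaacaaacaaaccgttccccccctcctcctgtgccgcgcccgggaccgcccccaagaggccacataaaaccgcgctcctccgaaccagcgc

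The window of Nr4a1 held the variant TGCGTCA 4 times, and 1.66% of 33469 promoter windows of the same length held it at all. The Dusp1 window held the full element TGACGTCA, found in 1.59% of windows, once and a separate core upstream of it. The Egr1 window held 2 CArG boxes, a motif found in 1.5% of windows, and 2 cores. The Junb window held 1 core, found in 18.2% of windows. None of the 4 windows held AAAGGTCA (1.24% of windows), GCGTGGGCG (0.478%) or TGANTCA (6.34%). These matches are descriptions of letters in the windows and were not tested as binding sites.

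The first question was how indomethacin and NS-398 compare at the same dose, and the second whether NS-398 differs from DMSO in both kinds of array. On the arrays with suffix b, 7 of the 8 genes were lower and 1, Egr1, was higher with indomethacin than with NS-398. Against DMSO on the same arrays, the same 7 genes were higher with NS-398 and Egr1 was lower. Both comparisons use the same NS-398 arrays, with opposite sign, so their mirrored directions are partly built in and are not separate findings. On the arrays without the suffix, Egr1 was lower with NS-398 and none of the other 7 genes passed the test. A gene was called at a limma adjusted p under 0.05 over all 17515 probe sets tested, and is counted here through the probe set whose mean signal was highest. By probe set, 11 of 12 were lower and 1 higher with indomethacin, beside 9.99% of all probe sets called in that comparison (4.11% higher and 5.87% lower). For NS-398 against DMSO, 11 were higher and 1 lower with suffix b, where 14.7% of all probe sets were called (7.71% higher and 6.99% lower). Without the suffix 0 were higher and 1 was lower, where 11.9% were called (6.13% higher and 5.81% lower). The median log2 change of the 8 genes was -0.51 for indomethacin against NS-398, 0.60 for NS-398 against DMSO with suffix b and -0.04 without it, while the median of all genes lay within 0.01 of 0 in each. The 8 genes were chosen with earlier results of these data known, so setting them beside all genes is a description and not a test.

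**Figure D1:**
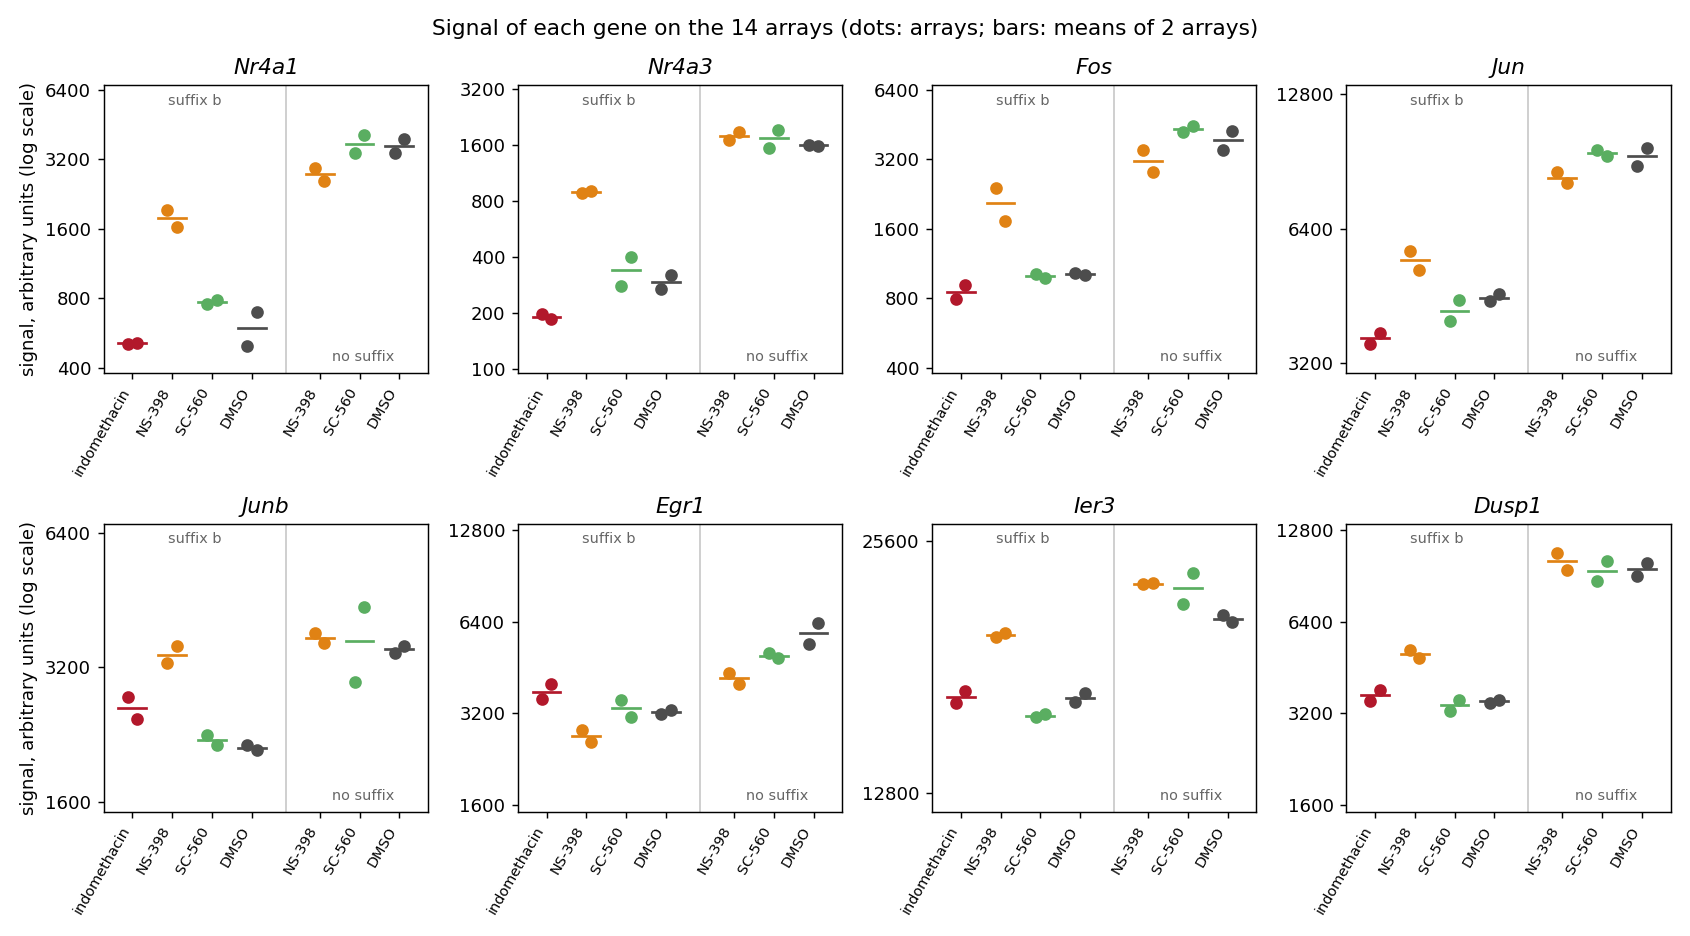
Signal of 1 probe set per gene on each of the 14 arrays, on log axes in arbitrary units, with dots for arrays and bars for means of 2 arrays. Among the arrays with suffix b, NS-398 is the highest group for 7 genes and the lowest for Egr1, and for all 8 genes DMSO is lower with the suffix than without it.

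Nr4a1, also known as Nur77, is an orphan nuclear receptor. Its probe set 1386935_at gave 509 and 514 with indomethacin, 1938 and 1635 with NS-398, 758 and 783 with SC-560 and 495 and 698 with DMSO on the arrays with suffix b. NS-398 stood above all other arrays of that kind. Indomethacin was at 0.286 times NS-398 (log2 change -1.71 ± 0.13 SE, limma adjusted p = 8.5e-07), and NS-398 at 2.99 times DMSO (1.52 ± 0.13, adjusted p = 2.1e-06). Without the suffix, Nr4a1 gave 2931 and 2579.9 with NS-398, 3403 and 4073 with SC-560 and 3422 and 3916 with DMSO. There NS-398 had the lower arrays, with no overlap with DMSO, and a log2 change of -0.41 that missed the threshold (95% interval -0.68 to -0.13, adjusted p = 0.052). It passed, as a fall, at a pseudocount of 200, with a filter at a signal of 200 on at least 4 arrays and in a fit of the arrays without the suffix alone, and its sign turned, with no call, in an additive fit of treatment and label kind (0.56, adjusted p = 0.184).

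The difference between the label kinds was tested itself. For Nr4a1 the effect of NS-398 was 1.93 ± 0.18 higher on the log2 scale with suffix b than without it (limma adjusted p = 1.86e-05). Leaving out each of the 8 arrays in turn kept the call, with adjusted p from 4.54e-06 to 4e-04.

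Nr4a3, or Nor1, is the third receptor of the family. Its probe set 1369067_at gave 196 and 185 with indomethacin, 883 and 908 with NS-398, 279.9 and 397.7 with SC-560 and 268 and 317 with DMSO on the arrays with suffix b. NS-398 was far above the rest, and indomethacin below every other array. Indomethacin was at 0.213 times NS-398 (log2 change -1.98 ± 0.13, limma adjusted p = 2.62e-07), the largest fall of the 8 genes, and NS-398 at 3.06 times DMSO (1.47 ± 0.13, adjusted p = 3.42e-06). Without the suffix the signals were 1703 and 1865 with NS-398, 1543 and 1928 with SC-560 and 1591 and 1585 with DMSO. The 3 groups lay close together there, and NS-398 differed from DMSO by a log2 change of 0.16 (95% interval -0.12 to 0.44, adjusted p = 0.483). The effect of NS-398 was 1.31 ± 0.19 higher with suffix b (adjusted p = 7.83e-04), also without any 1 array.

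The second tested Nr4a3 probe set, 1393389_at, was dimmer. It gave 129 and 89.1 with indomethacin, 304 and 399 with NS-398 and 106 and 166 with DMSO on the arrays with suffix b. Indomethacin and DMSO overlapped, and NS-398 lay above both. The log2 change was -1.34 ± 0.20 for indomethacin against NS-398 and 1.12 ± 0.20 for NS-398 against DMSO (limma adjusted p = 4.78e-04 and 0.00134). For this probe set the effect of NS-398 was 0.71 ± 0.28 higher with suffix b, which was not called (adjusted p = 0.161). Over the 14 arrays, after the mean of each label kind was removed, the tested Nr4a3 probe sets correlated with r = 0.917.

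Nr4a2, or Nurr1, completes the family. Its brighter probe set 1369007_at gave 144 and 129 with indomethacin, 487 and 526 with NS-398 and 187 and 207 with DMSO on the arrays with suffix b. The order of the groups was that of Nr4a3. Indomethacin was lower than NS-398 by a log2 change of -1.58 ± 0.16 (limma adjusted p = 1.47e-05) and NS-398 higher than DMSO by 1.17 ± 0.16 (adjusted p = 1.45e-04). Without the suffix Nr4a2 gave 663 and 764 with NS-398 and 464 and 607 with DMSO, a log2 change of 0.39 ± 0.16 that was not called (adjusted p = 0.126). Its NS-398 effect was 0.78 ± 0.23 higher with suffix b, which missed the threshold (adjusted p = 0.0514). A dimmer Nr4a2 probe set, 1387410_at, fell by 1.11 on the log2 scale with indomethacin against NS-398 (limma adjusted p = 0.00557). Its change for NS-398 against DMSO was 0.60 with suffix b and 0.47 without it, neither called (adjusted p = 0.0931 and 0.204). For this probe set the difference between the label kinds was 0.13 ± 0.32 (adjusted p = 0.865).

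Fos encodes the short-lived partner of JUN proteins in AP-1. Its tested probe set 1375043_at gave 797 and 910.1 with indomethacin, 2399 and 1733 with NS-398, 1022 and 979 with SC-560 and 1029 and 1005 with DMSO on the arrays with suffix b. The NS-398 arrays were highest and differed between themselves more than the others, and the indomethacin arrays were lowest. Indomethacin was at 0.413 times NS-398 (log2 change -1.21 ± 0.13, limma adjusted p = 2.63e-05), and NS-398 at 2.03 times DMSO (0.97 ± 0.13, adjusted p = 1.21e-04). Without the suffix Fos gave 3495 and 2826 with NS-398, 4187 and 4468 with SC-560 and 3509 and 4254 with DMSO. NS-398 was the lowest group there, just below DMSO, with a log2 change of -0.29 (95% interval -0.57 to -0.02, adjusted p = 0.159). The effect of NS-398 was 1.26 ± 0.18 higher with suffix b (adjusted p = 8.12e-04), also without any 1 array.

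Jun encodes the subunit that can pair with itself or with FOS. The brightest of its 3 probe sets, 1389528_s_at, gave 3520.2 and 3741 with indomethacin, 5707 and 5181 with NS-398, 3961 and 4421 with SC-560 and 4407 and 4556 with DMSO on the arrays with suffix b. The groups kept the order seen for Fos, with smaller gaps. The log2 change was -0.58 ± 0.07 for indomethacin against NS-398 (limma adjusted p = 6.02e-05) and 0.28 ± 0.07 for NS-398 against DMSO (adjusted p = 0.0116). The other Jun probe sets gave -0.64 and -0.73 for the first comparison and 0.36 and 0.42 for the second, each called. The call against DMSO was lost for 1389528_s_at without DMSO 1b (adjusted p = 0.0948) or NS-398 1b (adjusted p = 0.119), and for 1374404_at without DMSO 1b, NS-398 1b or NS-398 2b.

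Without the suffix, Jun 1389528_s_at gave 8556 and 8101 with NS-398, 9602 and 9303 with SC-560 and 8863 and 9729 with DMSO. NS-398 lay below DMSO by a log2 change of -0.16 that was not called (95% interval -0.30 to -0.01, limma adjusted p = 0.152), and the other probe sets gave -0.08 and -0.26, also not called. The effect of NS-398 differed between the label kinds for all 3 probe sets, by 0.43, 0.44 and 0.69 (adjusted p = 0.0135, 0.0172 and 0.0183). Each of these 3 calls was lost in 4 of the 8 fits that left out 1 array, with adjusted p up to 0.0713, 0.0913 and 0.102. The 3 Jun probe sets correlated with each other at r = 0.921 to 0.934 over the 14 arrays after the mean of each label kind was removed.

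Junb, an AP-1 subunit that often restrains JUN, differed from Fos and Jun in where indomethacin stood. Its probe set 1387788_at gave 2741 and 2457 with indomethacin, 3269 and 3569 with NS-398, 2257 and 2142 with SC-560 and 2139 and 2090.25 with DMSO on the arrays with suffix b. NS-398 was highest, and indomethacin lay between it and DMSO without overlap. NS-398 was at 1.62 times DMSO (log2 change 0.68 ± 0.12, limma adjusted p = 0.00106). Indomethacin was lower than NS-398 by a log2 change of -0.39 ± 0.12, just past the threshold (adjusted p = 0.0469), and the call was lost in each of the 4 fits that omitted 1 array (adjusted p = 0.0836 to 0.256). Without the suffix Junb gave 3815 and 3633 with NS-398, 2968 and 4365 with SC-560 and 3445 and 3581 with DMSO. The NS-398 arrays lay just above DMSO, and the SC-560 arrays were far apart. The NS-398 effect was 0.08 there (95% interval -0.17 to 0.33, adjusted p = 0.713). With suffix b the effect was higher by 0.60 ± 0.17 (adjusted p = 0.0457), a call lost in each of the 8 fits that omitted 1 array (adjusted p = 0.0585 to 0.144).

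Egr1, whose product binds GC-rich promoter sites, went the other way. Its probe set 1368321_at gave 3551 and 3988 with indomethacin, 2809 and 2573 with NS-398, 3542 and 3109.9 with SC-560 and 3191 and 3283 with DMSO on the arrays with suffix b. NS-398 was the lowest group, and indomethacin the highest. Indomethacin was at 1.4 times NS-398 (log2 change 0.48 ± 0.08, limma adjusted p = 0.00189), and the call held without any 1 of the 4 arrays. Without the suffix Egr1 gave 4351 and 4004 with NS-398, 5038 and 4846 with SC-560 and 5403 and 6329 with DMSO. NS-398 was lowest again, at 0.712 times DMSO (-0.48 ± 0.08, adjusted p = 0.00151), also without any 1 array. With suffix b it was at 0.831 times DMSO (-0.26 ± 0.08, adjusted p = 0.0474), and that call was lost in each of the 4 fits without 1 array (adjusted p = 0.0576 to 0.267), with quantile normalization, and with no filter on low signals. The effects with and without the suffix differed by 0.22 ± 0.12, which was not called (adjusted p = 0.319). Of the 8 genes, Egr1 alone was called lower with NS-398 in both kinds of array.

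Ier3, or IEX-1, protects some cells from apoptosis and had small changes between groups with little spread. Its probe set 1388587_at gave 16383 and 16970.3 with indomethacin, 19669 and 19903 with NS-398, 15766 and 15912 with SC-560 and 16446 and 16839.8 with DMSO on the arrays with suffix b. NS-398 stood above the other groups, and indomethacin overlapped DMSO. The log2 change was -0.25 ± 0.04 for indomethacin against NS-398 (limma adjusted p = 0.00227) and 0.25 ± 0.04 for NS-398 against DMSO (adjusted p = 0.00135). Quantile normalization within each kind of array brought the second value to 0.11 and ended its call (adjusted p = 0.0596). Without the suffix Ier3 gave 22758 and 22823 with NS-398, 21515 and 23451 with SC-560 and 20903 and 20486 with DMSO. NS-398 lay above DMSO by 0.14 on the log2 scale, which missed the threshold (95% interval 0.04 to 0.23, adjusted p = 0.054). That effect was 0.11 ± 0.06 higher with suffix b, which was not called (adjusted p = 0.345).

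Dusp1, or MKP-1, dephosphorylates p38, JNK and ERK. Its brighter probe set 1368146_at gave 3521 and 3824 with indomethacin, 5166 and 4867 with NS-398, 3253 and 3541 with SC-560 and 3465 and 3537 with DMSO on the arrays with suffix b. NS-398 alone stood apart. The log2 change was -0.45 ± 0.08 for indomethacin against NS-398 (limma adjusted p = 0.00211) and 0.51 ± 0.08 for NS-398 against DMSO (adjusted p = 4.69e-04). The dimmer probe set 1368147_at gave -0.77 ± 0.10 and 0.62 ± 0.10 for the same comparisons (adjusted p = 1.78e-04 and 7.38e-04). Without the suffix 1368146_at gave 10749 and 9466 with NS-398, 8708 and 10112 with SC-560 and 9048 and 10003 with DMSO. The groups overlapped, and the NS-398 effect of 0.08 was not called (95% interval -0.09 to 0.25, adjusted p = 0.556). The difference between the label kinds was 0.43 ± 0.11 for this probe set (adjusted p = 0.0348), lost in 6 of the 8 fits that left out 1 array, and was not called for the other probe set (0.42 ± 0.15, adjusted p = 0.107). The 2 probe sets correlated with r = 0.942 over the 14 arrays after the mean of each label kind was removed.

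**Figure D2:**
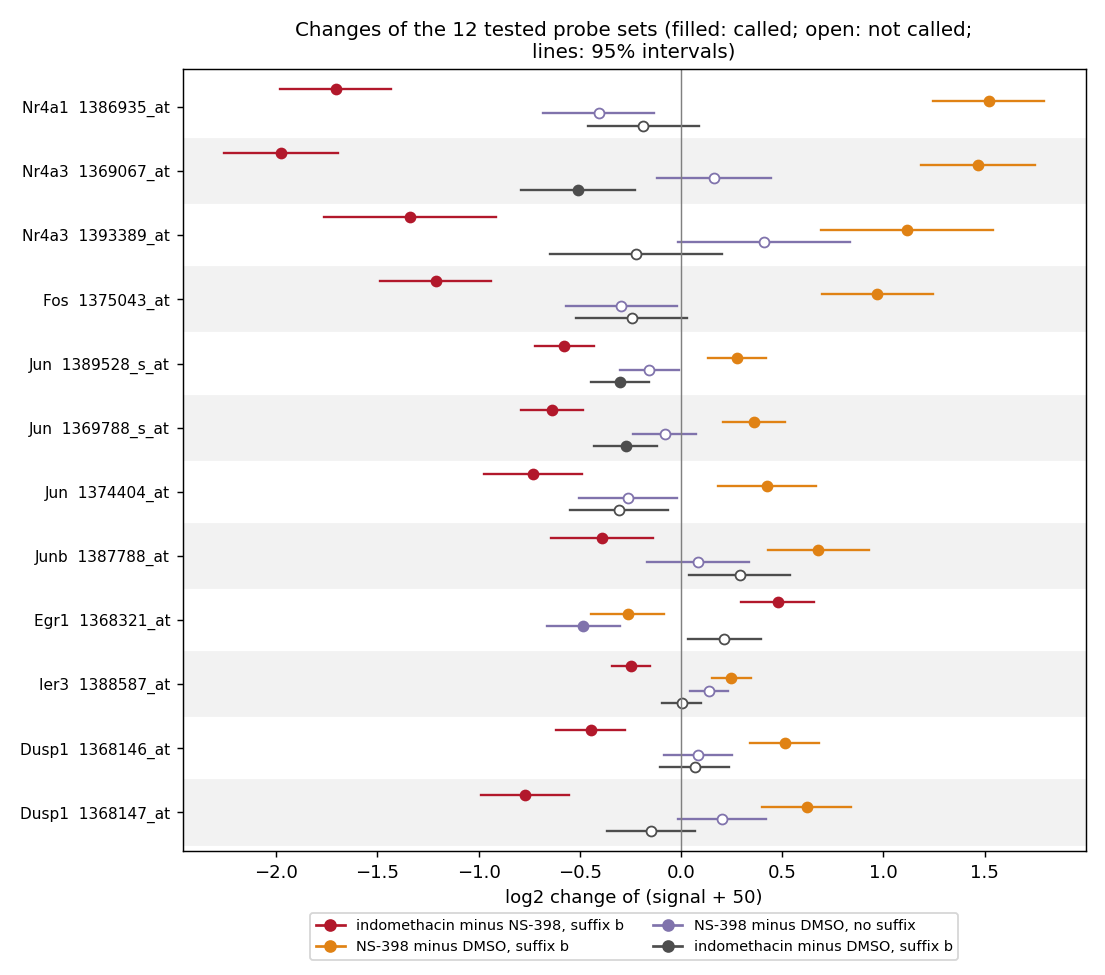
Log2 changes of the 12 tested probe sets with 95% intervals, filled where the limma adjusted p was under 0.05. Red points (indomethacin against NS-398) and orange points (NS-398 against DMSO, suffix b) lie on opposite sides of 0 for every probe set, and the purple points (NS-398 against DMSO, no suffix) are open except for Egr1. Red and orange changes share the NS-398 arrays with opposite sign.

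Across the 8 genes, the effect of NS-398 was higher with suffix b than without it for 6 by the test of the difference, and for 8 of the 12 probe sets, where 6.09% of all probe sets were called (3.23% higher). The count of 6 genes became 3 to 5 when 1 array was left out, 3 without the intensity trend and 4 with no filter on low signals. Nr4a1, Nr4a3 (1369067_at) and Fos kept the call in all of these fits. The 2 comparisons of NS-398 with DMSO share no arrays.

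Both Nr4a3 probe sets kept their calls for indomethacin against NS-398 and for NS-398 against DMSO with suffix b under every alternative tried. An additive fit, in which each treatment has 1 effect over both kinds of array, ended the first call for Nr4a1 (log2 change -1.12, limma adjusted p = 0.0662), Fos, Junb, Ier3, Dusp1 (1368146_at) and Jun 1374404_at, and the second for Nr4a1 (0.56, adjusted p = 0.184), Fos and all 3 Jun probe sets. Without the intensity trend, the first call was lost for Junb and Ier3 and the second for Egr1 and the Jun probe sets 1389528_s_at and 1374404_at.

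**Figure D3:**
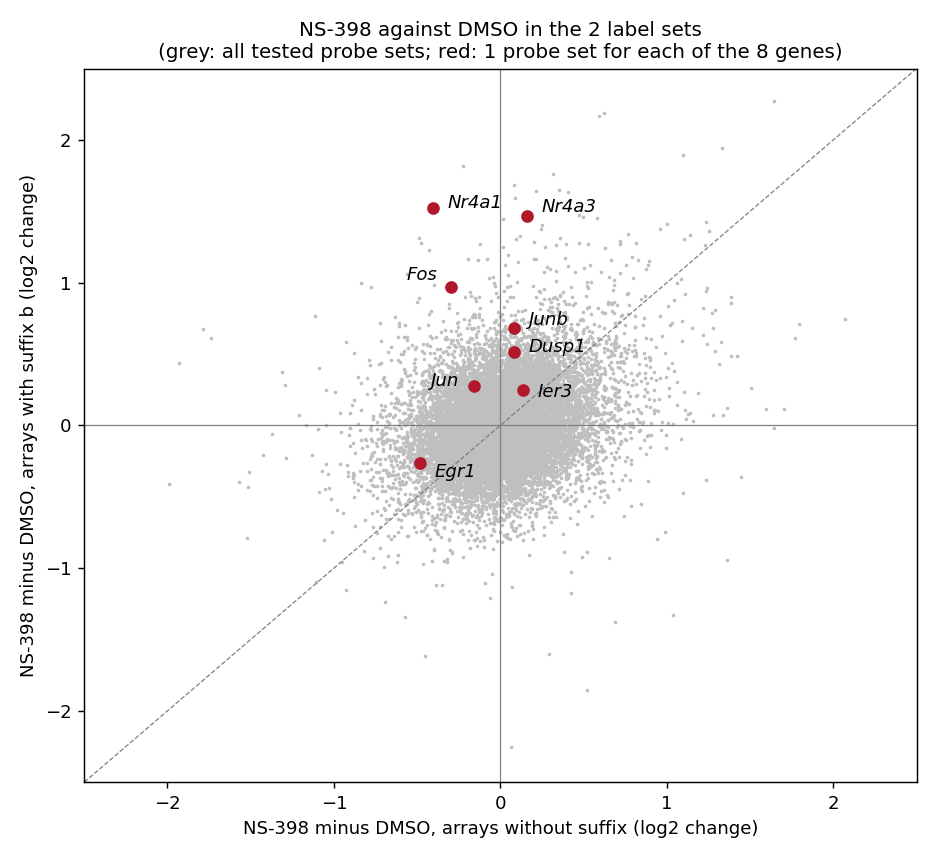
Log2 change of NS-398 against DMSO for 17515 probe sets, on the arrays without the suffix (x axis) and with suffix b (y axis), with 1 red point for each of the 8 genes and a dashed line where both are equal. All 8 red points lie above the dashed line, Nr4a1, Nr4a3 and Fos farthest from it. Beyond the axes, which end at 2.5 either way, lie 3 probe sets.

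Indomethacin was also set against DMSO on the arrays with suffix b. These DMSO arrays are those of the NS-398 comparison. Nr4a3 (1369067_at) was lower with indomethacin, at 0.651 times DMSO (log2 change -0.51 ± 0.13, limma adjusted p = 0.0297), and so was Jun (1389528_s_at, -0.30 ± 0.07, adjusted p = 0.0137). Thus 3 of the 12 probe sets were called, all lower, beside 7.10% of all probe sets (3.67% lower). The Nr4a3 call was lost in all 4 fits that omitted 1 array (adjusted p = 0.0676 to 0.185), and that of Jun 1389528_s_at in 3 of the 4 fits, all but the one without indomethacin 2b. The third call, of Jun 1369788_s_at (-0.27), was lost in all 4 fits. For the other 6 genes the log2 change lay between -0.24 (Fos) and 0.29 (Junb) and was not called. The 95% interval was -0.46 to 0.09 for Nr4a1, -0.52 to 0.03 for Fos, -0.09 to 0.10 for Ier3 and -0.10 to 0.24 for Dusp1 (1368146_at). It lay above 0 for Junb (0.039 to 0.54, limma adjusted p = 0.164) and Egr1 (0.035 to 0.394, adjusted p = 0.148). Junb was called higher in a fit of the arrays with suffix b alone (limma adjusted p = 0.0383).

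SC-560 at its lower dose gave no call for any of the 12 probe sets by limma, with or without the suffix. At an unadjusted p under 0.05 it was Nr4a1 with suffix b (log2 change 0.36, 95% interval 0.09 to 0.64, adjusted p = 0.337) and, without the suffix, Egr1 (-0.24, adjusted p = 0.62) and Ier3 (0.12, adjusted p = 0.642). Over all probe sets limma called 4 with suffix b (0.0228%) and 2 without it (0.0114%), against 1781 and 1134 at an unadjusted p under 0.05. For the remaining brightest probe sets the SC-560 effect lay between -0.10 and 0.17. SC-560 was given at 1 µM and the other drugs at 100 µM, so it was not tested against them. Where groups are ranked, drug and dose cannot be told apart for SC-560.

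The DMSO arrays themselves differed between the label kinds, a comparison added after the members' values had been seen. All 8 genes were lower on the DMSO arrays with suffix b than on those without it, and 12 of 12 probe sets were called lower, beside 41.9% of all probe sets called (21.8% higher and 20.1% lower). Nr4a1 averaged 596 ± 144 with the suffix and 3669 ± 350 without it (SD, n = 2 each), a ratio of 0.163 (log2 change -2.54 ± 0.13, limma adjusted p = 1.91e-10). Nr4a3 (1369067_at) stood at a ratio of 0.184, Fos at 0.262, Dusp1 (1368146_at) at 0.367, Jun (1389528_s_at) at 0.482, Egr1 at 0.552, Junb at 0.602 and Ier3 at 0.804, with adjusted p of at most 1.14e-04. The median log2 change was -1.24 over the 8 genes and 0.03 over all genes. These calls held under every alternative tried, including each fit without 1 DMSO array.

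Other measures moved with the suffix. Beside the actin ratio given above, the summed signal of the fibroblast and muscle markers was 68313 to 82214 on the arrays with the suffix and 44602 to 53481 on those without, and that of the epithelial markers 13025 to 16358 and 11257 to 12077. Of the 12 markers in each list, 2 epithelial and 7 fibroblast ones reached 100 on all arrays. The collagen genes Col3a1, Col1a1 and Col1a2, at up to 28560, 24190 and 26220, made up most of the fibroblast sum. Singly, the fibroblast and muscle markers did not move together: on the DMSO arrays with the suffix against those without, 3 of 10 tested were called higher and 2 lower, with a median log2 change of 0.04, while 5 of 8 epithelial ones were higher and 2 lower, with a median of 0.82 (46.7% of all genes called). The part of these measures in the lower levels of the 8 genes was not tested. In RNA from whole cultures, fewer cells that express a gene and less RNA per cell cannot be told apart. Between indomethacin and NS-398, the epithelial sum was 16299 to 16358 and 13396 to 14401, and the fibroblast sums overlapped.

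The order of the 7 groups of arrays followed from these differences. For Nr4a1, Nr4a3 (1369067_at), Fos, Jun (1389528_s_at), Ier3 and Dusp1, each group with suffix b lay below each group without it, and NS-398 was the highest with the suffix, with no overlap with either neighbour in the order. Indomethacin was the lowest group for Nr4a1, where it overlapped DMSO, and for Nr4a3, Fos and Jun, where it overlapped no neighbour. For Ier3 and Dusp1, SC-560 was lowest. For Junb, the NS-398 arrays with suffix b, at 3269 to 3569, overlapped the DMSO arrays without it, at 3445 to 3581. For Egr1, NS-398 with suffix b was the lowest group of all, at 2573 to 2809, and DMSO without the suffix the highest, at 5403 to 6329. Among the groups without the suffix, SC-560 and DMSO overlapped for Nr4a1, Fos and Jun, and neighbouring groups also overlapped for Dusp1. A lack of overlap was common over all probe sets tested. With suffix b it held for 52.0% for indomethacin against NS-398, 55.6% for NS-398 against DMSO and 53.1% for indomethacin against DMSO. For DMSO with the suffix against without it, the share was 71.8%.

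A wider list of 47 immediate early genes was read beside the 8. The list holds no member, 46 of its genes were on the array, and 45 were tested. It too was chosen with earlier results of these data known. With indomethacin against NS-398, 22 fell and 0 rose, where 11.2% of all genes were called. With NS-398 against DMSO, 24 rose and 0 fell with suffix b (16.7% of all genes called), and 17 rose and 4 fell without it (14.2%). Their median log2 changes were -0.28, 0.40 and 0.26, beside all-gene medians within 0.01 of 0. The first 2 of these comparisons share the NS-398 arrays with suffix b, with opposite sign. Leaving out 1 array gave 12 to 17 falls in the first comparison, the fewest without indomethacin 1b, 18 to 23 rises in the second, and 11 to 13 rises with 1 or 2 falls in the third.

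Within this list, Sgk1, a kinase induced by serum and glucocorticoids, fell by 0.70 on the log2 scale with indomethacin against NS-398 (limma adjusted p = 9.7e-06). It rose with NS-398 against DMSO by 1.10 ± 0.07 with suffix b and by 0.88 ± 0.07 without it. Errfi1, a feedback inhibitor of the EGF receptor, rose by 1.27 ± 0.11 with suffix b and by 0.53 ± 0.11 without it (limma adjusted p = 2.71e-06 and 0.00575). Klf4, a zinc finger factor of differentiating epithelium, rose by 0.59 ± 0.07 with suffix b and by 0.52 ± 0.07 without it (adjusted p = 5.79e-05 and 2.275e-04). Rhob, a short-lived GTPase, fell by 0.50 on the log2 scale without the suffix (adjusted p = 0.00132). Plk2, a polo-like kinase, fell by 0.49 without the suffix (adjusted p = 0.00535), a call lost without DMSO 2 or NS-398 1, and its value with suffix b was 0.68. The difference between the label kinds was called for 6 of the 45 genes, each with the larger value with suffix b, and 7.57% of all genes were called there. With indomethacin against DMSO, 6 of the 45 rose and 3 fell, or 20.0%, beside 7.96% of all genes called.

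**Figure D4:**
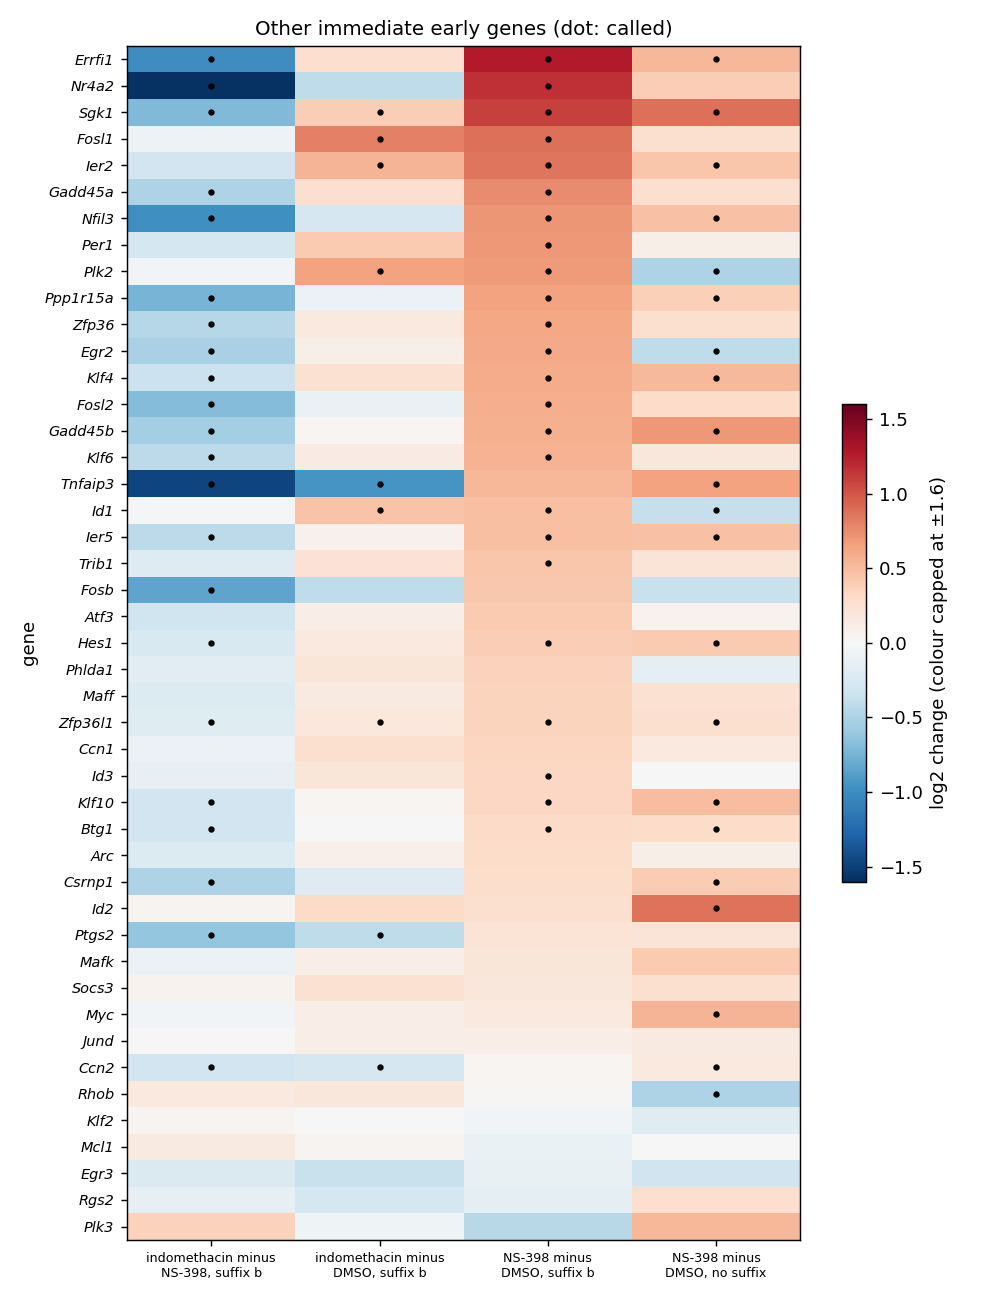
Log2 changes of the 45 tested genes of the wider list (rows) in 4 comparisons (columns), red for higher and blue for lower in the group named first, with a dot where the limma adjusted p was under 0.05. The indomethacin against NS-398 column holds 22 dots, all blue, and the NS-398 against DMSO column with suffix b holds 24, all red. These columns share the NS-398 arrays with suffix b, with opposite sign.

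Genes around the 8 in their pathways were counted the same way, in the order indomethacin against NS-398, then NS-398 against DMSO with suffix b and without it. Of all genes 11.2%, 16.7% and 14.2% were called in these 3 comparisons. The lists were chosen with earlier results of these data known, and the first 2 comparisons share the NS-398 arrays with suffix b. Of 9 tested targets of CREB, 5 fell and 0 rose in the first comparison, 7 rose in the second and 2 rose in the third. This list shares 4 of its 12 genes with the wider list. Nfil3, a basic leucine zipper repressor, fell by 0.98 on the log2 scale with indomethacin against NS-398 and rose with NS-398 by 0.71 ± 0.11 with suffix b (limma adjusted p = 3.61e-05 and 3.9e-04). Pde4b, which breaks down cyclic AMP, rose by 0.96 ± 0.18 with NS-398 without the suffix (adjusted p = 0.00219). Without DMSO 1b, the 7 CREB targets that rose became 4.

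Of 9 tested feedback genes of the ERK pathway, 2 fell in the first comparison, 4 rose in the second and 1 in the third (22.2%, 44.4% and 11.1%, beside 11.2%, 16.7% and 14.2% of all genes). The 4 that rose became 2 without DMSO 1b. Dusp4, a nuclear MAP kinase phosphatase, had a log2 change of -0.74 with indomethacin against NS-398 and Dusp8 one of -0.96 (limma adjusted p = 0.0486 and 0.0477), and both calls were lost in all 4 fits that omitted 1 array. Dusp4 rose by 1.27 ± 0.23 with NS-398 against DMSO with suffix b (adjusted p = 0.00134). Spry2, an inhibitor of receptor tyrosine kinase signalling, rose with NS-398 by 0.55 ± 0.09 with suffix b and by 0.48 ± 0.09 without it.

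Of 20 tested genes of the upstream kinases and factors, 2 fell in the first comparison, 0 were called in the second, and 1 rose and 2 fell in the third. These shares of 10.0%, 0% and 15.0% stand beside 11.2%, 16.7% and 14.2% of all genes, and the difference was not tested. Srf, the factor of CArG boxes, had a log2 change of -0.38 with indomethacin against NS-398 (limma adjusted p = 0.0323), a call lost when any 1 array was left out. Rps6ka3, the kinase RSK2, had one of -0.36 (adjusted p = 0.0193), lost without indomethacin 2b or NS-398 2b. Atf1 (0.25), Mapk14 (-0.25) and Elk1 (-0.42) were called for NS-398 against DMSO without the suffix, and the first 2 lost the call without any 1 array, Elk1 without DMSO 2, NS-398 1 or NS-398 2.

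Of 12 tested targets of AP-1, 3 fell and 1 rose in the first comparison, 4 rose in the second, and 5 rose and 1 fell in the third (33.3%, 33.3% and 50.0%, beside 11.2%, 16.7% and 14.2% of all genes). The 4 that rose in the second became 2 without DMSO 1b and 2 without NS-398 2b. Il6, the cytokine interleukin 6, fell by 1.47 on the log2 scale with indomethacin against NS-398 (limma adjusted p = 0.00149), and Gja1, the gap junction protein connexin 43, fell by 0.24. The mean log2 value of Il6 was low, at 6.56, and a signal of 100 on 2 arrays sufficed for testing. Il6 may thus have been tested through its higher arrays, so its fall may be partly a matter of selection. Without NS-398 1b or NS-398 2b, 11 of these targets were tested. Timp1, an inhibitor of metalloproteinases, rose by 0.40 ± 0.06 in that comparison and fell by 0.34 on the log2 scale with NS-398 against DMSO without the suffix (adjusted p = 8.86e-04 and 0.00288). Ccnd1, the cyclin of the G1 phase, rose with NS-398 by 0.85 ± 0.09 with suffix b and by 0.67 ± 0.09 without it. Hmox1, the haem-degrading enzyme, rose by 1.305 ± 0.143 with suffix b, and Spp1, osteopontin, by 0.96 ± 0.12 without it.

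Of 7 tested regulators of AU-rich messages, 3 fell and 1 rose in the first comparison, 3 rose and 1 fell in the second, and 2 rose in the third (57.1%, 57.1% and 28.6%, beside 11.2%, 16.7% and 14.2% of all genes). The 3 that fell became 1 without indomethacin 1b. Zfp36, which speeds the decay of such messages and is also on the wider list, fell by 0.46 on the log2 scale with indomethacin against NS-398 (limma adjusted p = 0.00604), a call lost without indomethacin 1b (adjusted p = 0.0671). Its relative Zfp36l2 fell by 0.46 in that comparison (adjusted p = 0.00126) and rose with NS-398 by 0.53 ± 0.08 with suffix b and 0.44 ± 0.08 without it. Zfp36l1, also on the wider list, rose with NS-398 by 0.36 ± 0.05 with suffix b and 0.255 ± 0.048 without it (limma adjusted p = 1.12e-04 and 0.00238). The list of AU-rich regulators shares 2 of its 8 genes with the wider list. Hnrnpd, or AUF1, rose by 0.36 ± 0.06 with indomethacin against NS-398 and fell by 0.39 with NS-398 against DMSO with suffix b (adjusted p = 6.91e-04 and 2.34e-04).

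Likeness between genes was described by Pearson's r over the 14 arrays after the mean of each label kind was removed, with 1 probe set per named gene. The arrays share their scaling, and replicate arrays may share pooled RNA, so the values are given with no test. Nr4a3 was most like Nr4a2 (r = 0.97), Ugt2b35 (0.959) and Wfdc18 (0.952). Nr4a1 was most like Spg21 (r = 0.948), Dpp7 (0.943) and Fos (0.938), and Fos like Nr4a1 (0.938), Rnaset2 (0.927) and Spg21 (0.924). Jun was most like Nudt4 (r = 0.932), Tmtc1 (0.929) and Fos (0.916). Junb and Dusp1 shared Pfkp among the genes most like them (r = 0.908 and 0.928). Ier3 was most like Ppp1r15a (r = 0.958), a phosphatase subunit of the stress response, and Egr1 was most like Numa1 (0.921), Ap3m1 (0.919) and Creb1 (0.909).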

How the data were processed

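Linear signal intensities for 31099 probe sets on each of 14 rat Affymetrix arrays were deposited by the authors, scaled to a target signal of 500 per the labels, after 2 rounds of RNA amplification. The software that summarised the probes is not given in the sources used here, and precision is limited by the number of arrays. Gene names came from GEO's platform annotation, and older symbols were replaced by way of gene identifiers in RefSeq GRCr8 (20764 matched, 68 kept their symbol); 20832 had 1 symbol, 436 several and 9831 were not listed. The 57 control probe sets were left out, and 17515 probe sets that reached a signal of 100 on at least 2 arrays were tested.

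Values of log2(signal + 50) were fitted with limma 3.58.1 under R 4.3.3, with 1 mean for each treatment within each label kind, all 14 arrays sharing 1 estimate of the spread (7 residual degrees of freedom), empirical Bayes moderation with an intensity trend and Benjamini-Hochberg adjustment over all 17515. Errors after ± are SE on log2 changes and SD on signals. The fit was tested on simulated data. Same-digit arrays, checked as pairs, had deviations correlating at -0.08 to 0.06 over 9 pairs, so no pairing by digit was seen and the main fit used none. The check cannot exclude that same-digit arrays share a culture or a run. Members and lists were chosen with earlier results of these data known. From each list, named genes were drawn from the up to 2 called genes per direction with the smallest adjusted p in each of the 3 comparisons. For likeness they were drawn from the 3 genes with the highest r. Not every gene that met these rules is printed. Nr4a2 values and further named cases were added afterwards. Pseudocount, normalization, filter, trend, block, additive fit and left-out arrays were varied.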

Additional observations from a re-analysis of the deposited data

Results flagged for a closer look

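Within the comparison groups, which held no more than 2 arrays, outlying arrays could not be sought. A gap rule was applied to the 4 arrays each of DMSO, NS-398 and SC-560, over both label kinds. It flagged no array in 36 cases of a probe set and a treatment. Levels differed between the label kinds, which limits what this rule can find. The effect of NS-398 against DMSO differed between the arrays with suffix b and those without it, by the limma test of the difference itself, for 8 probe sets, each with the higher value with the suffix. The differences on the log2 scale were 1.93 for Nr4a1, 1.31 for Nr4a3 (1369067_at), 1.26 for Fos, 0.69, 0.44 and 0.43 for the Jun probe sets 1374404_at, 1369788_s_at and 1389528_s_at, 0.60 for Junb and 0.43 for Dusp1 (1368146_at). Nr4a1 had an effect of 1.52 with the suffix and -0.41 without it, Nr4a3 of 1.47 and 0.16, and Fos of 0.97 and -0.29. The same genes stood lower on the DMSO arrays with the suffix than on those without it, at ratios of 0.163, 0.184 and 0.262. These DMSO arrays also enter the test of the difference, so the ratios are not independent of it. All 8 genes were lower on the DMSO arrays with the suffix, also Egr1 and Ier3, whose difference in the NS-398 effect was not called (limma adjusted p = 0.319 and 0.345). The actin 3' to 5' ratio also differed with the suffix, at 1.22 to 1.34 against 1.498 to 1.64. That of GAPDH overlapped, at 0.955 to 1.002 with the suffix and 0.902 to 0.990 without it. The part of these ratios in the result was not tested.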

How the results depend on the processing

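Of 48 called results for the members, 676 values under alternatives kept their direction, and 93 of them lost the call; of 24 results not called, 344 values included 11 that gained a call and 13 that changed sign. Counts of called probe sets fell without the intensity trend, to 1057 for indomethacin against NS-398 (1749 reported), 1393 for NS-398 against DMSO without the suffix (2091), 512 for the difference between label kinds (1066) and 566 for indomethacin against DMSO (1243). With no filter on low signals the last 2 gave 699 and 778. An additive fit, which assumes 1 difference between label kinds for all treatments, gave 954 for indomethacin against NS-398, 572 for indomethacin against DMSO, and 0 for SC-560 (2 called without the suffix and 4 with it). In that fit the indomethacin against NS-398 calls of Nr4a1 (adjusted p = 0.0662), Fos (adjusted p = 0.118), Junb, Ier3, Dusp1 (1368146_at) and Jun 1374404_at were lost. SC-560 with the suffix gave 8 under either quantile normalization, 62.5% of them higher, against 100% of 4. Leaving out 1 array gave 788 to 1006 for indomethacin against NS-398, 830 to 1104 and 1152 to 1751 for NS-398 without and with the suffix (2574 reported with it), 506 to 859 for the difference, 305 to 774 for indomethacin against DMSO, 2 to 6 and 1 to 15 for SC-560 without and with the suffix, and 5751 to 5972 for DMSO with the suffix against without (7340).

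The values that changed sign were all of results not called. For NS-398 against DMSO without the suffix, the additive fit gave 0.56 for Nr4a1, 0.34 for Fos and 0.0599, 0.1404 and 0.0812 for Jun 1389528_s_at, 1369788_s_at and 1374404_at, and Dusp1 (1368146_at) ran from -0.0072 (without NS-398 1) to 0.1752 when 1 array was left out. For indomethacin against DMSO, Dusp1 (1368146_at) was -3e-04 in the additive fit, and Ier3 -0.0552 and -0.0531 with quantile normalization of all arrays and within each kind. Leaving out 1 array gave -0.4149 to 0.0438 for Nr4a1 and -0.4561 to 0.012 for Nr4a3 (1393389_at), both highest without DMSO 2b, and -0.0225 to 0.0281 for Ier3, lowest without indomethacin 2b. The cause of these changes was not tested. Although no pairing was seen, a replicate block by digit was tried, and it moved the count for indomethacin against NS-398 to 1553. The block ended the calls of Egr1 for NS-398 against DMSO with the suffix (limma adjusted p = 0.07) and of Jun 1369788_s_at for indomethacin against DMSO (adjusted p = 0.0514). Groups of 2 arrays and signals near 100, as for Nr4a3 1393389_at, limit the precision.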

Other observations

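Marker genes of cell types were counted in the same 3 comparisons. Of 8 tested epithelial markers, 2 were higher with indomethacin than with NS-398, 3 rose and 1 fell with NS-398 against DMSO with suffix b, and 1 fell without it (25.0%, 50.0% and 12.5%, beside 11.2%, 16.7% and 14.2% of all genes called). The 3 that rose became 0 without DMSO 1b or without NS-398 2b, and 1 without NS-398 1b. Krt8, a keratin of simple epithelia, was higher with indomethacin than with NS-398 by a log2 change of 0.57 ± 0.06 (limma adjusted p = 9.7e-06) and had log2 changes of -0.35 ± 0.06 with NS-398 against DMSO with suffix b and -0.26 ± 0.06 without it. Cdx2, a transcription factor of the intestinal epithelium, rose by 0.60 ± 0.16 with NS-398 against DMSO with suffix b (adjusted p = 0.0176), a call lost without DMSO 1b or NS-398 2b, and Krt19, another keratin, by 0.70 ± 0.19 (adjusted p = 0.0217), lost without DMSO 1b, NS-398 1b or NS-398 2b.

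Of 10 tested fibroblast and muscle markers, 1 fell in the first comparison, 2 rose and 2 fell in the second, and 3 rose and 3 fell in the third (10.0%, 40.0% and 60.0%, beside the same shares of all genes). Leaving out 1 array gave 1 or 2 rises and 1 or 2 falls in the second, and 1 rise in the third without NS-398 1 or NS-398 2. Dcn, the matrix proteoglycan decorin, fell by 1.29 on the log2 scale with indomethacin against NS-398 (limma adjusted p = 1.32e-05) and rose with NS-398 against DMSO by 0.62 ± 0.13 with suffix b, a call lost without DMSO 2b, and by 0.97 ± 0.13 without the suffix. With suffix b, Tagln, transgelin of the smooth muscle cytoskeleton, fell by 1.62 with NS-398 against DMSO (adjusted p = 1.06e-04), while Des, the muscle filament protein desmin, rose by 0.69 ± 0.19 (adjusted p = 0.0203), a call lost without DMSO 1b or NS-398 2b. Without the suffix, the collagen genes Col3a1 and Col1a2 fell by 0.32 and 0.33 on the log2 scale (limma adjusted p = 2.14e-04 and 6.47e-04). Lum, the proteoglycan lumican, rose by 1.64 ± 0.28 there (adjusted p = 0.00103), with signals of 1.88 to 270.8 over the 14 arrays. Its mean log2 value was low, at 6.51, so it may have been tested through its higher arrays and its rise be partly a matter of selection. Without NS-398 1 or NS-398 2, 8 of these markers were tested, so fewer rises there need not be lost calls. The 3 tested immune and endothelial markers, Cd14, Kdr and Cd68, had log2 changes between -0.24 (Cd68, indomethacin against NS-398) and 0.51 (Kdr, NS-398 against DMSO without the suffix), which did not pass the test.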
